A study of Mus musculus with 20 samples.

Results

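In total, 10 genes of the NF-κB system were followed across macrophages with and without iNOS, the inducible nitric oxide synthase encoded by Nos2, and across macrophages with and without the reductase gene Akr1a1. They were chosen by name from the 56748 genes of both deposited count tables: the subunits Nfkb1, Nfkb2, Rela, Relb and Rel, the cytoplasmic inhibitors Nfkbia and Nfkbie, the nuclear cofactors Nfkbiz and Bcl3, and the deubiquitinase gene Tnfaip3. All 10 passed the filter on low counts in both tables. The first experiment holds 12 libraries that the labels name bone marrow-derived macrophages (BMDM), 3 for each of 4 groups: wildtype or iNOS KO, either left unstimulated or treated for 48 h with IFNγ and LPS, a component of bacterial outer membranes. The second holds 8 libraries of RAW264.7 cells, a mouse macrophage-like line, 2 for each combination of genotype (wildtype or Akr1a1 KO) and state.

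Stimulation used 50 ng/mL LPS in both experiments, with 30 ng/mL IFNγ in BMDMs and 10 ng/mL in RAW264.7 cells according to the labels, and all cells grew in RPMI medium with serum. The labels describe wildtype and iNOS KO C57BL/6J mice of both sexes, aged 6 to 12 weeks, and 20 ng/mL M-CSF in the BMDM cultures, while the study's methods name the iNOS KO strain B6.129P2-Nos2tm1Lau/J and give a higher lower bound of age. The study's methods state that marrow was pooled by genotype, so the 3 libraries of a group were not shown to come from separate animals, and p-values may measure technical spread. The paper describes the iNOS experiment at transcript level in RAW264.7 cells, so the cell type of these 12 libraries is unsettled and they are called the iNOS experiment here. The Akr1a1 KO cells are single-cell clones made with CRISPR-Cas9, and the methods describe the 2 libraries of each RAW264.7 group as separate clones, while the labels do not say which clone a letter marks. In the RAW264.7 table the unstimulated replicate B of both genotypes has a title that names it stimulated, while its treatment field names it unstimulated. Groups follow the treatment field, and the column names of the counts give both libraries the same state code as unstimulated replicate A. On the first axis of a principal component analysis they were at -70.5 (wildtype) and -68.4 (Akr1a1 KO). The stimulated RAW264.7 libraries were at 61.6 to 74.2 on it.

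NF-κB factors are dimers of the 5 subunits, and in resting macrophages inhibitors of the IκB family hold them in the cytoplasm. LPS acts through TLR4 and the IκB kinase complex, which marks these inhibitors for destruction, so that the dimers enter the nucleus. The genes they switch on include some of their own inhibitors, among them Nfkbia and Tnfaip3, which gives the pathway its negative feedback.

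Promoters of 3 inhibitor genes are shown because stimulated iNOS KO libraries held less of their transcripts than stimulated wildtype libraries did. RefSeq promoters on GRCm38.p6, from 250 bases before to 50 after a start, were listed for 7 of the 10 genes, with 10 starts in all. The 10-base NF-κB consensus, searched on both strands, matched 8 of these 10 promoters and 4.51% of all 32851 promoters listed. The Rela promoter and the second Tnfaip3 start held no match. The single match at Bcl3, which was higher in stimulated iNOS KO, lay at bases 3 to 12 after its start. Matches also lay at Rel and at each Nfkb2 start, genes without a called stimulated genotype difference with all libraries. Whether matches go with transcript levels was not tested. A match describes letters only. Below are the 250 bases before the start, 5′ to 3′ on the strand of the gene, with matches in capitals.

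Nfkbia (chr12:55492648-55492897, minus strand): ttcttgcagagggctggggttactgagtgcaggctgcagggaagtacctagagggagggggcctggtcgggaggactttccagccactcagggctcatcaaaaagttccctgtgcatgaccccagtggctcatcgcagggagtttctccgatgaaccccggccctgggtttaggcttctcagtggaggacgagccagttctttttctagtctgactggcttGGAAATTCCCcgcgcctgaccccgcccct
Nfkbie (chr17:45555450-45555699, plus strand): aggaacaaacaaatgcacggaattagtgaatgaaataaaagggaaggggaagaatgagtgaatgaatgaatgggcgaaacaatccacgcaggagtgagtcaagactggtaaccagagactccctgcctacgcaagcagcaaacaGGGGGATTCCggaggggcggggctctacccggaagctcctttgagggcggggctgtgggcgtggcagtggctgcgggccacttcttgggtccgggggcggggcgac
Tnfaip3 (chr10:19015411-19015660, minus strand): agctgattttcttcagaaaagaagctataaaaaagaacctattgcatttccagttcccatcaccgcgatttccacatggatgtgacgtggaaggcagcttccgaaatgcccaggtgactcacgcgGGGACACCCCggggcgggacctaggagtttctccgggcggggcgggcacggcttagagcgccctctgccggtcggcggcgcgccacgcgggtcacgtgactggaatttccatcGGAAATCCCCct

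At Nfkbia the match began 29 bases before the start, at Nfkbie it began 106 bases before it, and at Tnfaip3 the 2 matches began 125 and 12 bases before it. Nfkb1, Relb and Nfkbiz were not among the promoters used here.

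Libraries held 15072109 to 18878107 counts in the iNOS experiment and 11876719 to 44583327 in RAW264.7 cells. Levels are CPM, a library's counts scaled to a common total with TMM factors. Stimulated iNOS KO replicate B stood apart: its root mean square log2 difference was 0.366 and 0.402 to replicates A and C, which differed by 0.143, so most comparisons that use stimulated iNOS KO are also given without it. In RAW264.7 cells the 2 libraries of a group differed by 0.274 to 0.484. Nos2, the gene of iNOS, was at 10370, 11533 and 11313 CPM in stimulated wildtype, at 870.5, 891 and 912 CPM in stimulated iNOS KO, and at 0 in unstimulated iNOS KO libraries. Akr1a1 was at 427 to 675 CPM in the wildtype libraries, and at 206 and 21.8 CPM in unstimulated and 370.4 and 212 CPM in stimulated Akr1a1 KO libraries, so its transcript remained. Of 9 macrophage markers, 8, including Csf1r and Cd68, exceeded 10 CPM in at least 1 library of each experiment. Not all of these did so throughout, as Fcgr1 fell to 4.15 CPM in the iNOS experiment and Itgam to 1.81 CPM in RAW264.7 cells. Mertk held at most 95 counts in the iNOS experiment and at most 3 in RAW264.7 cells. The summed macrophage markers were at 8336 to 8685 CPM in unstimulated and 8150.3 to 9138 CPM in stimulated wildtype libraries, and at 5893 to 6303 CPM in unstimulated and 12729 to 13565 CPM in stimulated iNOS KO libraries, so the sum of iNOS KO was below that of wildtype before stimulation and above it after. Lyz2 alone was at 3234 to 7363 CPM over the libraries of this experiment and Cd14 at 941 to 3157 CPM. Itgam, Fcgr1 and Mertk reached at most 135, 218 and 6.59 CPM, so the sum mainly follows the abundant markers. The 7 lymphocyte markers summed to at most 0.693 CPM in any library of the iNOS experiment, with 3 of them at 0 throughout, and the 4 dendritic cell markers to at most 1.94 CPM in stimulated wildtype and 2.67 to 3.88 CPM in stimulated iNOS KO libraries. The 7 neutrophil markers summed to 35.5 to 62.1 CPM in stimulated wildtype and 38.5 to 44.3 CPM in stimulated iNOS KO libraries, almost wholly through S100a8, and 2 of them were at 0 throughout. The 6 fibroblast markers summed to 3.65 to 4.92 CPM in stimulated wildtype and 11.3 to 16.6 CPM in stimulated iNOS KO libraries, with Dcn alone over 10 CPM. In stimulated RAW264.7 cells the summed macrophage markers were at 12229 to 12440 CPM in wildtype and 5293 to 9239 CPM in Akr1a1 KO libraries, and the neutrophil markers at 121 to 145 and 248 to 420 CPM. The part of these markers in the results was not tested. In bulk RNA, fewer cells with a transcript and less transcript per cell cannot be told apart.

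In the iNOS experiment, stimulation raised nearly the whole set. By the quasi-likelihood test of edgeR (called at an adjusted p under 0.05, Benjamini-Hochberg over 18691 genes), 9 of the 10 rose in wildtype cells, where 32.4% of all genes tested rose and 28.5% fell. In iNOS KO cells all 10 rose, where 27.3% of all genes rose and 24.6% fell. The median log2 fold change of the 10 was 1.63 in wildtype and 1.64 in iNOS KO cells, and that of all genes tested was 0.07 and -0.00032. Between genotypes the set split. In stimulated cells 6 of the 10 differed (48.4% of all genes tested), with Nfkb1 and Bcl3 higher in iNOS KO (24.2% of all genes) and Nfkbia, Nfkbie, Nfkbiz and Tnfaip3 lower (24.2%). These shares are high, so 6 of 10 is near what genes in general showed, and the median log2 difference of the 10 was -0.07 beside -0.04 for all genes. In unstimulated cells 2 of 10 differed (5.98% of all genes), Nfkbiz and Tnfaip3, both lower in iNOS KO (4.09%). The response to stimulation itself differed between genotypes for 6 of 10 (35.4% of all genes), with 3 larger in iNOS KO (20.0%) and 3 smaller (15.4%). Without iNOS KO replicate B, 8 of the 10 differed between stimulated genotypes (50.9% of all genes), all 10 rose in iNOS KO cells, by 0.54 for Relb to 3.48 for Nfkbiz on the log2 scale, and the responses differed for 7 (40.4% of all genes). For the 6 genes whose responses differed with all libraries, the difference was then 0.53 for Nfkb1, 1.16 for Bcl3, 0.34 for Nfkbiz, -0.75 for Nfkbia, -0.55 for Nfkbie and -0.46 for Tnfaip3. Adjusted p-values below come from the same test.

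**Figure D1:**
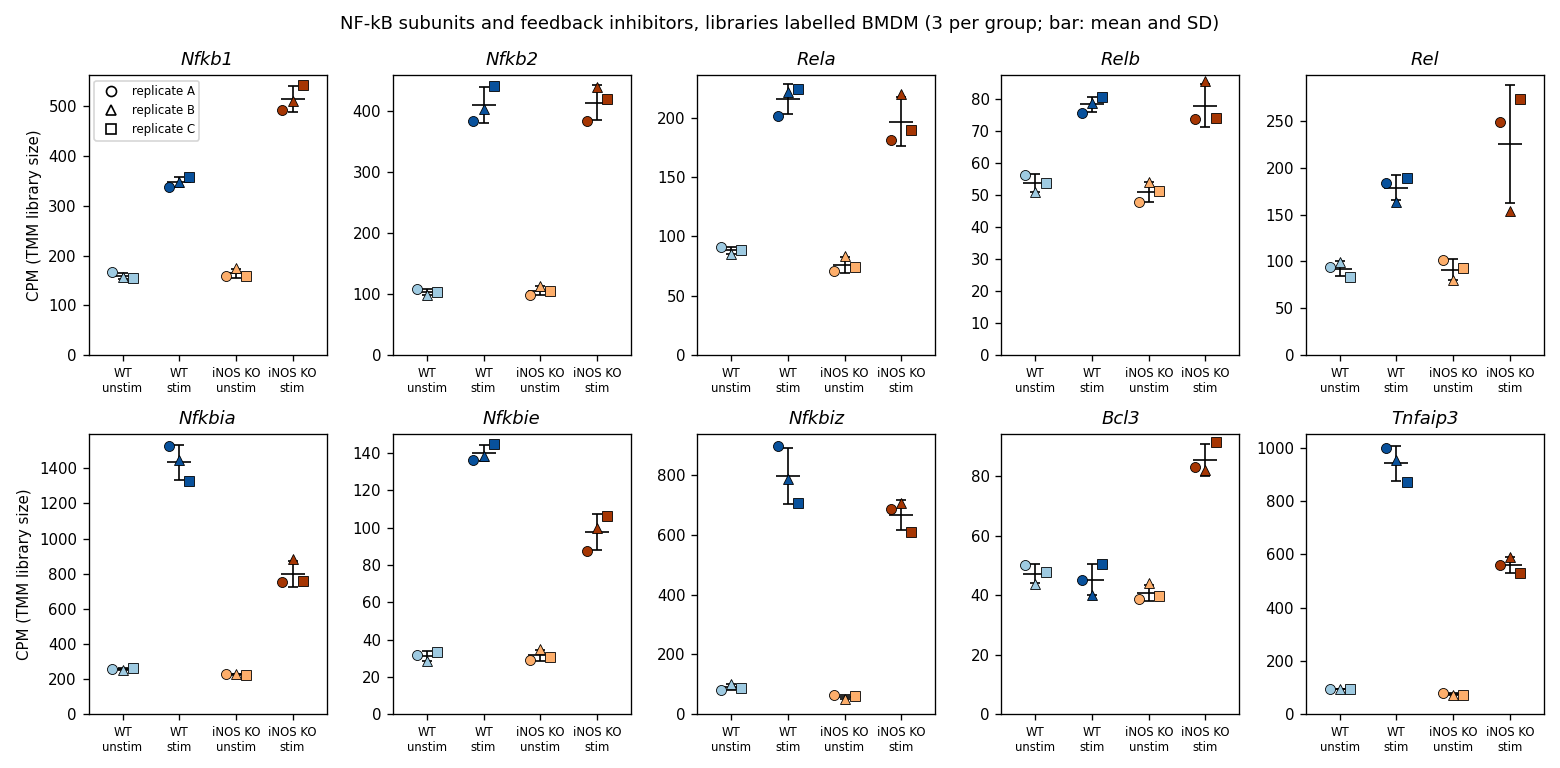
CPM of each gene in each library of the iNOS experiment, with 4 groups of 3 libraries on the horizontal axis, 1 marker shape per replicate letter, and the mean with its SD as a bar. In stimulated cells the markers of both genotypes separate for Nfkb1, Bcl3, Nfkbia, Nfkbie, Nfkbiz and Tnfaip3, and the Rel value of iNOS KO replicate B sits below all wildtype values.

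Nfkb1 (ENSMUSG00000028163, chromosome 3, 135290416 to 135397308, minus strand) encodes a precursor that is cut to the p50 subunit and was the subunit with a genotype effect that was called. Its level was 167, 157 and 156 CPM in unstimulated and 338, 347 and 358 CPM in stimulated wildtype libraries (replicates A, B and C). In iNOS KO libraries it was 159.6, 175 and 159.7 CPM unstimulated and 491, 509 and 543 CPM stimulated. The stimulated iNOS KO libraries were all above the stimulated wildtype libraries, and the unstimulated groups overlapped. The log2 fold change on stimulation was 1.12 (SE 0.063, adjusted p = 7.21e-11) in wildtype and 1.64 (SE 0.064, adjusted p = 8.64e-13) in iNOS KO cells. Stimulated iNOS KO exceeded stimulated wildtype by 0.56 (SE 0.062, adjusted p = 8.69e-07) on the log2 scale, and the response to stimulation was larger in iNOS KO by 0.52 (SE 0.088, adjusted p = 0.000161). Without iNOS KO replicate B the stimulated difference was 0.57.

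Nfkb2 (ENSMUSG00000025225, chromosome 19, 46292759 to 46300824, plus strand), the precursor of p52 in the non-canonical arm, had the highest log2 fold change of the 5 subunits in wildtype cells. It was at 109, 99.4 and 104 CPM unstimulated and 384, 403 and 442 CPM stimulated in wildtype, and at 98.6, 114 and 106 CPM unstimulated and 384, 439 and 420.4 CPM stimulated in iNOS KO libraries. The genotypes overlapped in both states, and the rise was 1.98 (SE 0.078, adjusted p = 6.38e-13) in wildtype and 1.96 (SE 0.078, adjusted p = 1.18e-12) in iNOS KO cells on the log2 scale. The 95% interval of the genotype difference ran from -0.14 to 0.17 in stimulated cells, and without iNOS KO replicate B the difference was -0.03 (adjusted p = 0.771 from edgeR). Nfkb2 overlaps Psd (299 bases) and 4833438C02Rik (1317 bases) on the opposite strand, whose own counts came to 8.19% and 4.05% of those of Nfkb2, and the strand setting of the counting is not given in the sources used here, so their reads cannot be told apart.

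Rela (ENSMUSG00000024927, chromosome 19, 5687511 to 5698158, plus strand) and Relb (ENSMUSG00000002983, chromosome 7, 19340142 to 19363363, minus strand), which encode transactivating subunits, also rose. Rela went from 91.2, 85.1 and 88.6 CPM to 201, 221 and 224 CPM in wildtype, and from 71.0, 83.8 and 74.3 CPM to 181, 219.8 and 189 CPM in iNOS KO libraries. The log2 rise was 1.29 (SE 0.084, adjusted p = 5.33e-10) and 1.36 (SE 0.084, adjusted p = 5.08e-10). Unstimulated iNOS KO values of Rela were all below the wildtype values, but the difference of -0.21 was not called (adjusted p = 0.195 from edgeR). In stimulated cells the Rela difference was -0.13 (SE 0.082, adjusted p = 0.204), and without iNOS KO replicate B it was -0.22 (adjusted p = 0.00672), which passed the threshold.

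Relb had the lowest log2 rise of the 5 subunits in both genotypes. It was at 56.3, 50.8 and 53.8 CPM unstimulated and 75.6, 78.6 and 80.4 CPM stimulated in wildtype, and at 47.8, 53.9 and 51.2 CPM unstimulated and 73.8, 85.5 and 73.9 CPM stimulated in iNOS KO libraries. The stimulated genotypes overlapped, and without iNOS KO replicate B their difference was -0.08 (adjusted p = 0.321 from edgeR). The rise was 0.54 (SE 0.078, adjusted p = 1.06e-05) in wildtype and 0.61 (SE 0.078, adjusted p = 4.45e-06) in iNOS KO cells on the log2 scale. The wildtype rise rested on the scaling: with library totals in place of TMM, which moves the median of all genes from 0.07 to -0.39, it was 0.08 (adjusted p = 0.349). Over 14 alternative settings the iNOS KO rise kept its call but ran from 0.19 to 0.65.

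Rel (ENSMUSG00000020275, chromosome 11, 23686847 to 23720970, minus strand) encodes c-Rel, the subunit most tied to lymphoid and myeloid cells, and its genotype effect depended on 1 library. It was at 94.0, 99.3 and 83.6 CPM unstimulated and 183, 163 and 189 CPM stimulated in wildtype, and at 101, 80.0 and 93.2 CPM unstimulated in iNOS KO libraries. Stimulated iNOS KO libraries held 249, 153 and 273 CPM, so replicates A and C were above and replicate B below every stimulated wildtype library. Stimulation raised Rel by 0.95 (SE 0.15, adjusted p = 4.4e-05) in wildtype and 1.30 (SE 0.15, adjusted p = 2.04e-06) in iNOS KO cells on the log2 scale. The stimulated genotype difference was 0.34 (SE 0.15, adjusted p = 0.0811), and without replicate B it was 0.55 (adjusted p = 1.22e-06). The difference between the responses, 0.35 (SE 0.22, adjusted p = 0.242), became 0.56 (adjusted p = 0.000115) without it.

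Nfkbia and Nfkbie, the cytoplasmic inhibitors of the set, were induced in both genotypes and less so without iNOS. Nfkbib, another IκB gene and one of the other negative regulators read below, went the other way. Its response was larger in iNOS KO by 0.35 (SE 0.11, adjusted p = 0.0204 from edgeR), and by 0.28 (adjusted p = 0.0127) without iNOS KO replicate B. Nfkbia (ENSMUSG00000021025, chromosome 12, 55536195 to 55539432, minus strand) encodes IκBα, the main inhibitor of dimers that hold RelA. It was at 259, 249 and 261 CPM in unstimulated and 1525, 1447 and 1329.7 CPM in stimulated wildtype libraries. In iNOS KO libraries it was at 230.2, 228 and 225 CPM and 754, 886 and 759 CPM. Every iNOS KO library lay below every wildtype library in both states, with a wide gap after stimulation. Nfkbia rose by 2.48 (SE 0.072, adjusted p = 1.18e-14) in wildtype and 1.81 (SE 0.071, adjusted p = 9.84e-13) in iNOS KO cells on the log2 scale, and stimulated iNOS KO was 0.56 times stimulated wildtype, a log2 difference of -0.84 (SE 0.069, adjusted p = 2.26e-08). The unstimulated difference, -0.17 (SE 0.069, adjusted p = 0.201), was not called. The responses differed by -0.67 (SE 0.097, adjusted p = 3.47e-05), and without iNOS KO replicate B the stimulated difference was -0.92.

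Nfkbie (ENSMUSG00000023947, chromosome 17, 45866629 to 45874095, plus strand), which encodes the related inhibitor IκBε, was at 31.6, 28.3 and 33.5 CPM unstimulated and 136, 139 and 145 CPM stimulated in wildtype libraries. In iNOS KO libraries it was at 29.0, 34.9 and 30.7 CPM unstimulated and 87.3, 99.7 and 106 CPM stimulated. The unstimulated genotypes overlapped and the stimulated ones did not. It rose by 2.17 (SE 0.093, adjusted p = 1.99e-12) in wildtype and 1.63 (SE 0.092, adjusted p = 1.42e-10) in iNOS KO cells on the log2 scale. Stimulated iNOS KO was at 0.70 times wildtype on the linear scale, a log2 difference of -0.52 (SE 0.088, adjusted p = 0.000104), the responses differed by -0.53 (SE 0.13, adjusted p = 0.00331), and without iNOS KO replicate B the stimulated difference was -0.53.

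Tnfaip3 (ENSMUSG00000019850, chromosome 10, 18876658 to 18891405, minus strand) encodes A20, a ubiquitin-editing enzyme that shuts off signalling above the IκB kinase, and had the highest log2 fold change of the set in wildtype cells. It was at 92.9, 94.3 and 94.7 CPM unstimulated and 1001, 954 and 872 CPM stimulated in wildtype, and at 78.6, 73.1 and 72.9 CPM unstimulated and 561, 591 and 531 CPM stimulated in iNOS KO libraries. The iNOS KO libraries were below the wildtype libraries in both states without overlap. Stimulation raised it by 3.33 (SE 0.070, adjusted p = 2.37e-16) in wildtype and 2.90 (SE 0.069, adjusted p = 1.43e-15) in iNOS KO cells on the log2 scale. The genotype difference was -0.33 (SE 0.066, adjusted p = 0.00504) unstimulated and -0.75 (SE 0.064, adjusted p = 4.01e-08) stimulated. The responses differed by -0.42 (SE 0.092, adjusted p = 0.00159), and the stimulated difference was -0.79 without iNOS KO replicate B.

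The nuclear cofactors went in different directions. Nfkbiz (ENSMUSG00000035356, chromosome 16, 55631738 to 55659262, minus strand) encodes IκBζ, an inducible nuclear protein needed for a part of the LPS-induced genes such as Il6. It was at 82.1, 101 and 88.1 CPM unstimulated and 897, 786 and 708 CPM stimulated in wildtype, and at 63.6, 50.6 and 59.7 CPM unstimulated and 686, 706 and 611 CPM stimulated in iNOS KO libraries. All unstimulated iNOS KO values were below the wildtype values, and after stimulation the lowest wildtype and the highest iNOS KO value nearly met. The rise was 3.14 (SE 0.11, adjusted p = 1.05e-13) in wildtype and 3.53 (SE 0.11, adjusted p = 5.05e-14) in iNOS KO cells on the log2 scale. Nfkbiz was lower in iNOS KO, with log2 differences of -0.64 (SE 0.10, adjusted p = 0.000755) unstimulated and -0.26 (SE 0.099, adjusted p = 0.0419) stimulated. The stimulated call was lost without wildtype replicate A (-0.16, adjusted p = 0.217), without wildtype replicate B (-0.27, adjusted p = 0.076) and without iNOS KO replicate C (-0.20, adjusted p = 0.15). The response was larger in iNOS KO by 0.38 (SE 0.14, adjusted p = 0.047), a call that 10 of 19 alternatives lost. Without iNOS KO replicate B the stimulated difference was -0.30 (adjusted p = 0.00478).

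Bcl3 (ENSMUSG00000053175, chromosome 7, 19542387 to 19556695, minus strand) encodes an atypical IκB protein that binds p50 and p52 homodimers in the nucleus, and it was the 1 member of the set without a called rise in wildtype cells of this experiment. It was at 50.1, 43.9 and 47.6 CPM unstimulated and 45.2, 40.0 and 50.3 CPM stimulated in wildtype libraries, groups that overlapped. In iNOS KO libraries it was at 38.8, 43.9 and 39.7 CPM unstimulated and 82.9, 81.8 and 91.5 CPM stimulated, so every stimulated iNOS KO library was above every other library. The log2 fold change on stimulation was -0.06 (SE 0.091, adjusted p = 0.57) in wildtype, with a 95% interval of -0.26 to 0.13, and 1.07 (SE 0.090, adjusted p = 2.89e-08) in iNOS KO cells. Stimulated iNOS KO was 1.89 times stimulated wildtype, a log2 difference of 0.92 (SE 0.090, adjusted p = 2.26e-07), and the responses differed by 1.13 (SE 0.13, adjusted p = 2.26e-06). Without iNOS KO replicate B the stimulated difference was 0.95. The opposite-strand genes Gm16174 and Gm16175 overlap Bcl3, with at most 21 and 4 counts in a library. With library totals in place of TMM the wildtype change was -0.53 (adjusted p = 6.47e-05), beside a median of -0.39 over all genes.

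**Figure D2:**
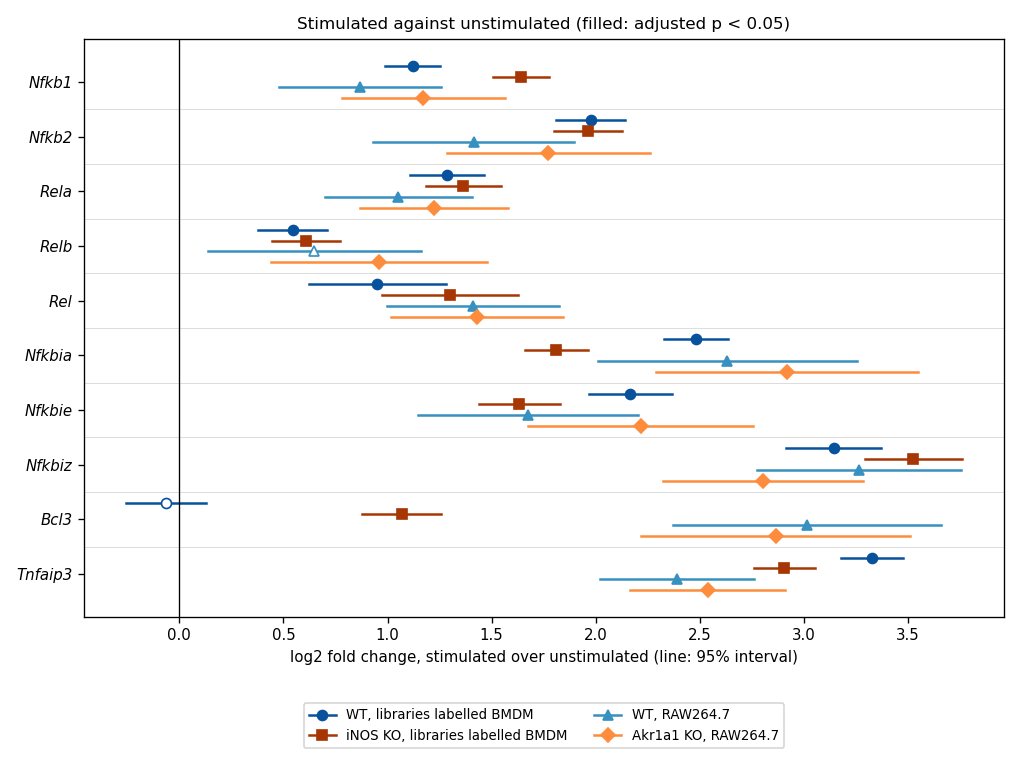
Log2 fold change of each gene on stimulation in the 4 genotype and experiment combinations, with points at the estimate, lines for the 95% interval and filled points where the adjusted p is under 0.05. Bcl3 sits at -0.06 in wildtype cells of the iNOS experiment and at 1.07 in iNOS KO cells, and at 3.01 and 2.86 in RAW264.7 cells.

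Per kilobase of the gene length listed with the counts, Nfkbia was the most abundant member in all 4 groups of the iNOS experiment. The listed length was 1610 bases for Nfkbia and 12061 for Nfkb1. Whether it is the length of the transcripts present was not tested, so the order between genes is approximate. In unstimulated wildtype cells it was at 159 ± 3.91 CPM per kb (SD, n = 3), followed by Rela at 28.7 ± 1.01 CPM per kb and Nfkb2 at 22.7 ± 1.05 CPM per kb. The lowest were Rel at 12.4 ± 1.07 CPM per kb and Nfkbie at 10.2 ± 0.866 CPM per kb. Relb at 13.8 ± 0.713 and Nfkb1 at 13.3 ± 0.503 CPM per kb did not differ beyond their spread, nor did Tnfaip3 and Rel beside them. After stimulation the order in wildtype cells was Nfkbia at 891 ± 61.1 CPM per kb, Nfkbiz at 159 ± 18.9, Tnfaip3 at 130.4 ± 8.99, Nfkb2 at 89.4 ± 6.44 and Rela at 70.1 ± 4.10 CPM per kb. Bcl3 had become the lowest, at 18.3 ± 2.08 CPM per kb, beside Relb at 20.1 ± 0.615 CPM per kb, from which it did not separate by more than their spread. In stimulated iNOS KO cells Bcl3 stood at 34.5 ± 2.15 and Nfkbie at 32.1 ± 3.17 CPM per kb, and Relb was the lowest at 20.0 ± 1.74 CPM per kb.

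The balance of Nfkbia to Rela transcripts moved with stimulation, and with genotype in stimulated cells. As a ratio of CPM per kb, Nfkbia to Rela was 5.41, 5.59 and 5.63 in unstimulated and 14.5, 12.5 and 11.3 in stimulated wildtype libraries. In iNOS KO libraries it was 6.19, 5.19 and 5.78 unstimulated and 7.95, 7.69 and 7.66 stimulated. The stimulated genotypes did not overlap and the unstimulated ones did. The summed level of the 5 subunits overlapped between stimulated genotypes, at 221, 231 and 245 CPM per kb in wildtype and 236, 252 and 254 CPM per kb in iNOS KO libraries. Nfkbia and Nfkbie together were at 992, 944 and 873 CPM per kb in stimulated wildtype and at 497, 583 and 507 CPM per kb in stimulated iNOS KO libraries. Nfkbib, outside the set, is not in this sum. Not scaled by length, it was at 217 ± 8.73 CPM in stimulated wildtype and 256 ± 22.1 CPM in stimulated iNOS KO libraries (SD, n = 3). These ratios and sums rest on the same listed lengths, were chosen after the values were seen and carry no test.

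The other genes of the pathway were read from 3 lists. Of 20 upstream signalling genes, 13 differed between stimulated genotypes, 3 higher and 10 lower in iNOS KO, where 48.4% of all genes differed, 24.2% in each direction. The median log2 difference of the list was -0.20, beside -0.04 for all genes. Higher were Ikbkb, the catalytic IκB kinase subunit, by 0.77 (SE 0.072, adjusted p = 1.23e-07), Myd88, the Toll-like receptor adaptor, by 0.48 (SE 0.078, adjusted p = 6.45e-05), and Map3k7, the kinase TAK1, by 0.25 (SE 0.084, adjusted p = 0.0224). Lower were Ikbkg, the regulatory subunit NEMO of the same kinase, at -0.95 (SE 0.075, adjusted p = 1.43e-08), Tab3, a TAK1-binding protein, at -0.73 (SE 0.19, adjusted p = 0.00376), and Map3k14, the kinase NIK of the non-canonical arm, at -0.68 (SE 0.11, adjusted p = 8.67e-05). Ikbkb was at 41.4 ± 2.33 CPM in stimulated wildtype and 70.5 ± 2.70 CPM in stimulated iNOS KO libraries (SD, n = 3), and Ikbkg at 102 ± 3.85 and 52.8 ± 4.73 CPM, so subunits of 1 kinase complex differed in opposite directions. The interaction was called for 5 of the 20 (35.4% of all genes), and for 8 (40.4%) without iNOS KO replicate B. On stimulation 8 of the 20 rose and 6 fell in wildtype cells (32.4% and 28.5% of all genes), and 8 rose and 6 fell in iNOS KO cells (27.3% and 24.6%), though not all were the same genes: Ikbkg rose and Ikbkb fell in wildtype cells, neither was called in iNOS KO cells, and the responses differed by -1.01 (SE 0.11, adjusted p = 8.71e-07) and 0.82 (SE 0.10, adjusted p = 5.33e-06). The highest rise in wildtype was that of Irak2, of the receptor-associated kinase family, 1.91 (SE 0.066, adjusted p = 1.16e-13). The deepest fall was that of Tab1, a TAK1-binding protein, -2.02 (SE 0.13, adjusted p = 5.36e-10). Without iNOS KO replicate B, 14 of the 20 differed between stimulated genotypes (50.9% of all genes), 4 higher and 10 lower. Those named above were then at 0.79 for Ikbkb, 0.41 for Myd88, 0.35 for Map3k7, -0.97 for Ikbkg, -0.52 for Tab3 and -0.80 for Map3k14. In that fit the responses differed by -1.03 for Ikbkg and 0.84 for Ikbkb, and neither gene was called on stimulation in iNOS KO cells.

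Among 15 other negative regulators, stimulated iNOS KO cells had 5 at higher and 8 at lower levels (24.2% of all genes each), with a median of -0.19 beside -0.04 for all genes. Without iNOS KO replicate B these were 3 and 9, and the shares of all genes for the difference and the interaction in that fit are those given above. Partners of A20 were among the lower ones: Tax1bp1, an adaptor of A20, at -1.02 (SE 0.17, adjusted p = 9.56e-05), and Itch, a ubiquitin ligase, at -0.72 (SE 0.14, adjusted p = 0.000409). So was Cyld, a separate deubiquitinase, at -0.81 (SE 0.11, adjusted p = 7.62e-06). Tax1bp1 was at 367 ± 39.5 CPM in stimulated wildtype and 180.2 ± 59.9 CPM in stimulated iNOS KO libraries (SD, n = 3). Higher were Pdlim2, a nuclear ubiquitin ligase for RelA, by 0.46 (SE 0.089, adjusted p = 0.000373), Irak3, an inhibitory kinase relative, by 0.34 (SE 0.077, adjusted p = 0.00138), and Commd1, a factor in RelA turnover, by 0.34 (SE 0.12, adjusted p = 0.0316). Without replicate B the values were -0.78 for Tax1bp1, -0.51 for Itch, -0.65 for Cyld, 0.36 for Pdlim2 and 0.35 for Irak3, and Commd1 was no longer called (0.20, adjusted p = 0.176 from edgeR). On stimulation 12 of the 15 rose and none was called lower in either genotype (32.4% of all genes rose in wildtype and 27.3% in iNOS KO cells), and 13 rose in iNOS KO cells without replicate B. In unstimulated cells 3 of the 15 differed, all lower in iNOS KO: Nfkbid, Irak3 and Zc3h12a, where 5.98% of all genes differed and 4.09% were lower. The interaction was called for 7 (35.4% of all genes), and for 8, 4 larger and 4 smaller, without replicate B.

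Among 22 known NF-κB targets, stimulated iNOS KO cells had 8 at higher and 11 at lower levels (24.2% of all genes each), with a median of -0.25 beside -0.04 for all genes. Without replicate B these were 7 and 11, beside the same shares of all genes as for the lists above. Highest was Lcn2, a siderophore-binding protein, at 45.5 ± 4.64 CPM in stimulated wildtype and 348 ± 2.34 CPM in stimulated iNOS KO libraries (SD, n = 3), a log2 difference of 2.94 (SE 0.10, adjusted p = 5.06e-13). Sod2, the mitochondrial superoxide dismutase, was higher by 0.90 (SE 0.062, adjusted p = 2.37e-09), and the cytokine Il6 by 0.90 (SE 0.20, adjusted p = 0.00178). Lower were the chemokine Cxcl2, at -1.30 (SE 0.071, adjusted p = 1.36e-10), and the cytokine Tnf, at -1.18 (SE 0.089, adjusted p = 7.94e-09). The chemokine Ccl5 was lower too, at 485 ± 33.0 CPM in stimulated iNOS KO beside 973 ± 69.2 CPM in stimulated wildtype libraries (SD, n = 3, adjusted p = 2.15e-09 from edgeR). Tnf was at 4457 ± 320.1 and 1967 ± 319 CPM (SD, n = 3). Without replicate B the difference was 2.94 for Lcn2, 0.85 for Sod2, 1.14 for Il6, -1.32 for Cxcl2, -1.31 for Tnf and -1.03 for Ccl5. Before stimulation 6 of the 22 already differed (5.98% of all genes), 1 higher in iNOS KO (1.88%) and 5 lower (4.09%). Cxcl2 was among the lower ones, at -0.80 (SE 0.073, adjusted p = 2.01e-06 from edgeR), as were Saa3 at -2.70 and Il1a at -1.34. The higher one was Ccl5, by 1.35 (SE 0.20, adjusted p = 0.000407 from edgeR), with at most 32 counts in an unstimulated library. All 22 rose on stimulation in both genotypes (32.4% of all genes in wildtype and 27.3% in iNOS KO cells). The interaction was called for 14 (35.4% of all genes), 7 larger and 7 smaller in iNOS KO, and for 17, 8 larger and 9 smaller, without replicate B.

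**Figure D3:**
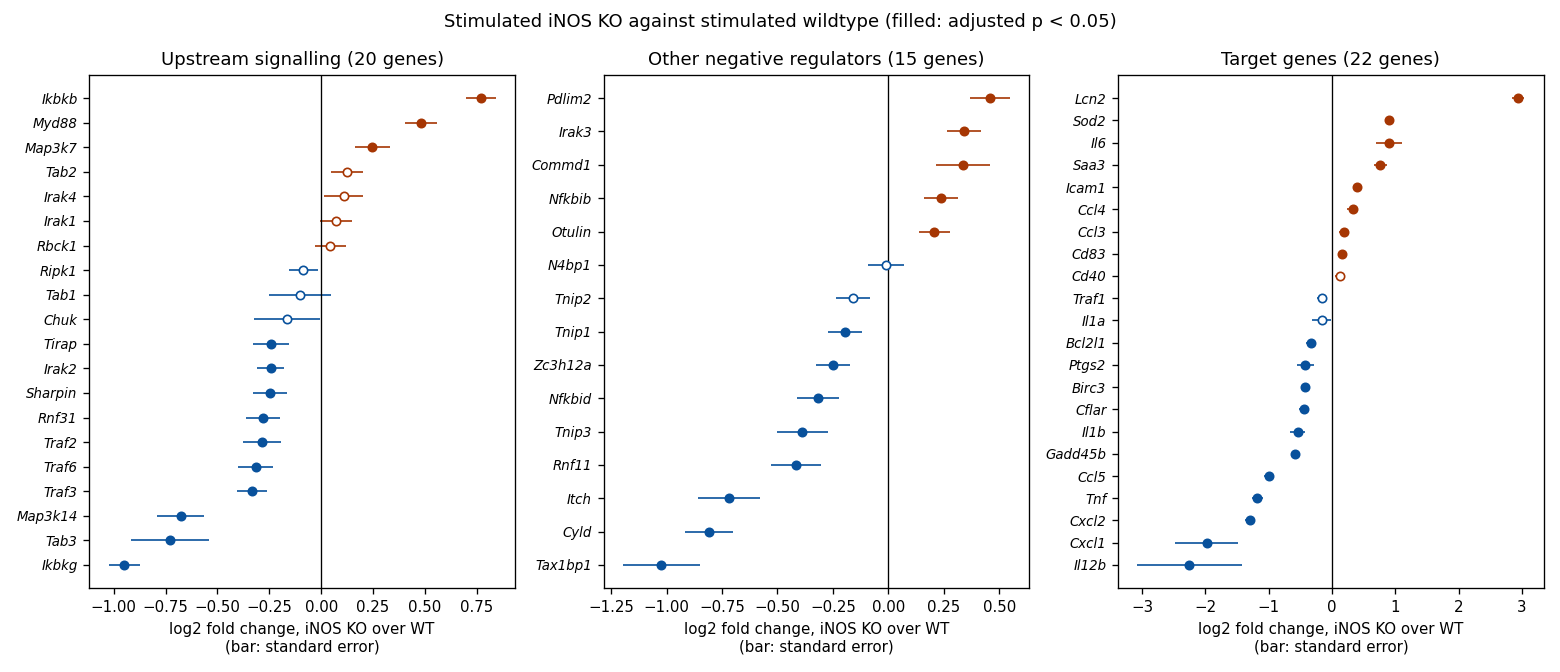
Log2 difference of stimulated iNOS KO against stimulated wildtype cells for the 3 pathway lists, with bars for the standard error and filled points where the adjusted p is under 0.05. The upstream list runs from -0.95 for Ikbkg to 0.77 for Ikbkb, and the target list reaches 2.94 for Lcn2.

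**Figure D4:**
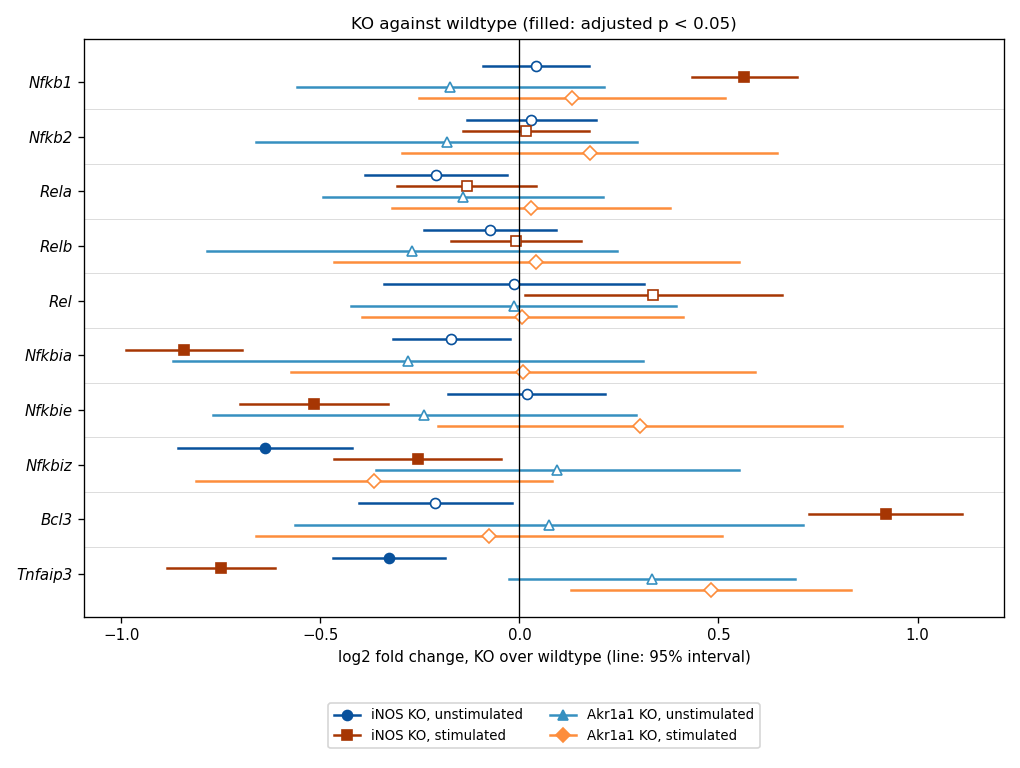
Log2 difference of KO against wildtype cells for the 10 genes in both states of both experiments, with lines for the 95% interval and filled points where the adjusted p is under 0.05. All filled points belong to iNOS KO, and the intervals of Akr1a1 KO are wider.

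In RAW264.7 cells stimulation raised 9 of the 10 in wildtype (18.5% of all 19569 genes tested rose and 19.2% fell) and all 10 in Akr1a1 KO cells (19.8% rose and 19.4% fell). The exception, Relb, was at 13.9 and 16.9 CPM unstimulated and 22.2 and 26.2 CPM stimulated in wildtype (replicates A and B), groups that did not overlap, with a log2 change of 0.65 (SE 0.22, adjusted p = 0.0507) in edgeR's test. With genotype and letter as a replicate block it was 0.65 (adjusted p = 0.0167), which passed the threshold. It was also called by DESeq2 (0.72, adjusted p = 0.0228) and without stimulated wildtype replicate A (0.83, adjusted p = 0.0392). In Akr1a1 KO cells Relb rose by 0.96 (SE 0.23, adjusted p = 0.0101), a call lost without unstimulated replicate B (0.69, adjusted p = 0.0738). The median log2 rise of the 10 was 1.54 in wildtype and 1.99 in Akr1a1 KO cells, and that of all genes -0.03 and 0.02.

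Among the subunits in RAW264.7 cells, Nfkb1 was at 131 and 155 CPM unstimulated and 221 and 301 CPM stimulated in wildtype, and at 132 and 122 CPM unstimulated and 296 and 276 CPM stimulated in Akr1a1 KO libraries. Nfkb2 was at 37.0 and 45.6 CPM unstimulated and 92.7 and 128 CPM stimulated in wildtype, and at 41.4 and 31.9 CPM unstimulated and 137 and 112 CPM stimulated in Akr1a1 KO libraries. Stimulated libraries were above unstimulated ones for both genes, and the genotypes overlapped in each state. Rela was at 55.8 and 66.0 CPM unstimulated and 113 and 139.6 CPM stimulated in wildtype, and at 58.9 and 51.8 CPM unstimulated and 137 and 121 CPM stimulated in Akr1a1 KO libraries, and Rel was at 57.9 and 64.0 CPM unstimulated and 135 and 189 CPM stimulated in wildtype, and at 61.3 and 59.6 CPM unstimulated and 179 and 146 CPM stimulated in Akr1a1 KO libraries. Both showed the same pattern of separated states and overlapping genotypes. The log2 rises that passed the test ran from 0.87 for Nfkb1 to 1.41 for Nfkb2 in wildtype, and from 0.96 for Relb to 1.77 for Nfkb2 in Akr1a1 KO cells. For Nfkb2 the overlapping Psd and 4833438C02Rik had counts of 17.2% and 6.37% of those of Nfkb2 here.

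Among the inhibitors, Nfkbia was at 60.1 and 96.4 CPM unstimulated and 387 and 586 CPM stimulated in wildtype, and at 59.1 and 70.2 CPM unstimulated and 476 and 503 CPM stimulated in Akr1a1 KO libraries. Its rise was 2.63 (SE 0.27, adjusted p = 0.000151) in wildtype and 2.92 (SE 0.27, adjusted p = 8.66e-05) in Akr1a1 KO cells in edgeR's test. Nfkbie was at 8.35 and 8.71 CPM unstimulated and 22.8 and 31.7 CPM stimulated in wildtype, and at 8.56 and 6.05 CPM unstimulated and 32.7 and 34.6 CPM stimulated in Akr1a1 KO libraries. Both stimulated Akr1a1 KO libraries were above both stimulated wildtype libraries for Nfkbie, but the log2 difference of 0.30 was not called (adjusted p = 0.658 from edgeR). Tnfaip3 was at 27.2 and 34.3 CPM unstimulated and 171 and 153 CPM stimulated in wildtype, and at 42.9 and 35.0 CPM unstimulated and 228 and 223 CPM stimulated in Akr1a1 KO libraries. Akr1a1 KO libraries were above wildtype libraries for Tnfaip3 in both states. The difference was 0.33 (SE 0.16, adjusted p = 0.666) unstimulated and 0.48 (SE 0.15, adjusted p = 0.304) stimulated from edgeR, with 95% intervals of -0.03 to 0.69 and 0.13 to 0.83, and neither was called.

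Of the nuclear cofactors, Nfkbiz was at 27.6 and 39.6 CPM unstimulated and 278 and 372 CPM stimulated in wildtype, and at 35.6 and 36.5 CPM unstimulated and 243 and 261 CPM stimulated in Akr1a1 KO libraries. Stimulated Akr1a1 KO values were below the wildtype values, a log2 difference of -0.37 (SE 0.19, adjusted p = 0.528) from edgeR that was not called. Bcl3 was at 4.21 and 4.49 CPM unstimulated and 45.5 and 25.2 CPM stimulated in wildtype, and at 4.48 and 4.70 CPM unstimulated and 33.8 and 33.1 CPM stimulated in Akr1a1 KO libraries. Its rise was 3.01 (SE 0.28, adjusted p = 9.02e-05) in wildtype and 2.86 (SE 0.28, adjusted p = 0.000109) in Akr1a1 KO cells. The wildtype change in the iNOS experiment was -0.06 at another IFNγ dose by the labels and in a separate table, so these values stand side by side without a test. Unstimulated RAW264.7 libraries held 57 to 209 counts of Bcl3, and unstimulated libraries of the iNOS experiment 789 to 1005.

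**Figure D5:**
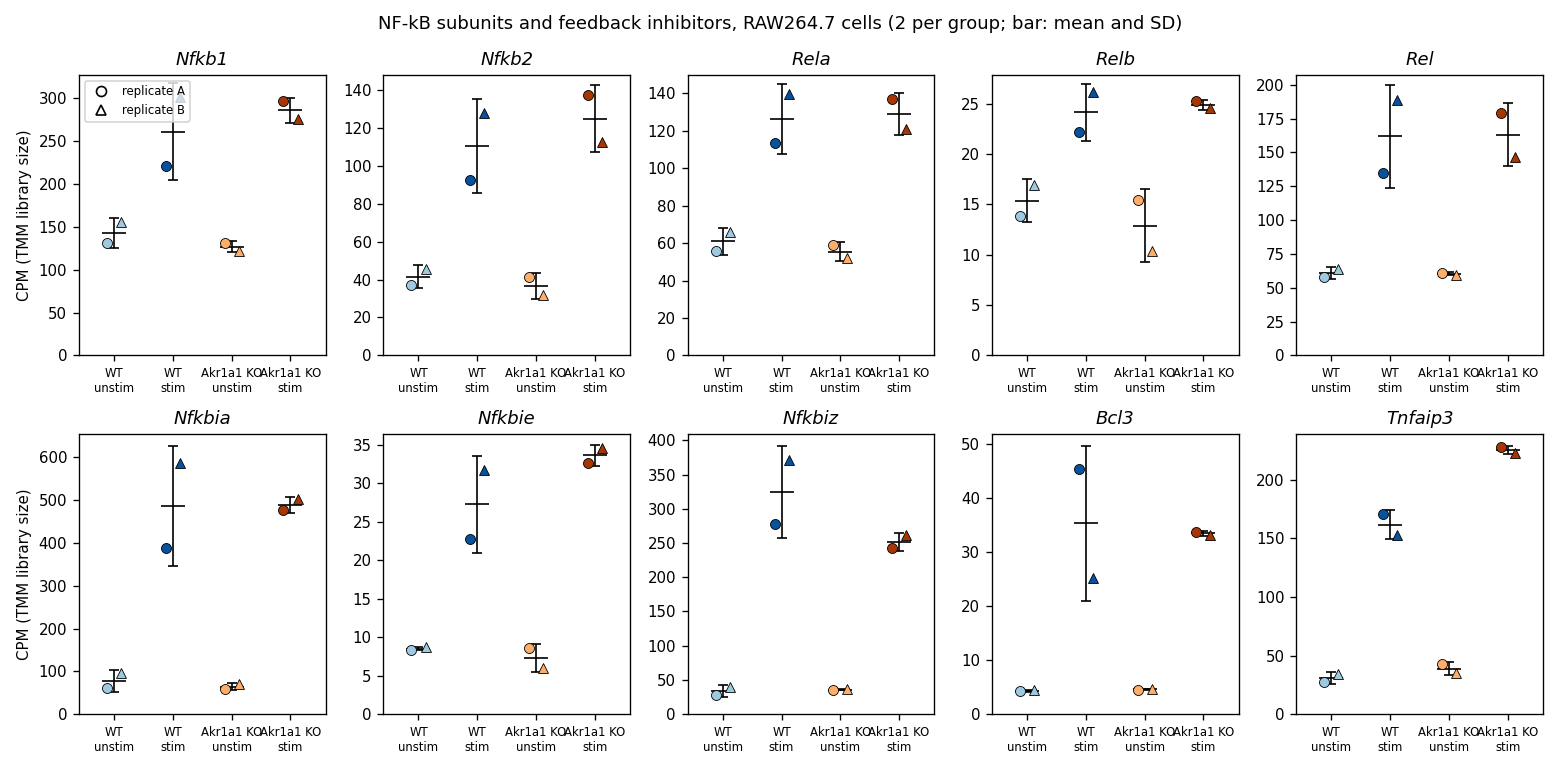
CPM of each gene in each RAW264.7 library, with 4 groups of 2 libraries on the horizontal axis, 1 marker shape per replicate letter, and the mean with its SD as a bar. Stimulated libraries sit above unstimulated libraries of the same genotype for all 10 genes, while wildtype replicates A and B are far apart for Nfkbia (387 and 586 CPM stimulated) and Bcl3 (45.5 and 25.2 CPM).

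Akr1a1 KO changed none of the 10 past the threshold. The count was 0 of 10 in stimulated cells (0.286% of all genes), in unstimulated cells (0.583%) and for the interaction (0.0204%) by edgeR, and 0 in each by DESeq2. At an unadjusted p under 0.05 it was 1 in stimulated cells, Tnfaip3, and 0 in the other 2 comparisons. Log2 differences ran from -0.37 for Nfkbiz to 0.48 for Tnfaip3 in stimulated cells, with 95% intervals reaching -0.81 and 0.83, and from -0.28 to 0.33 in unstimulated cells, with intervals reaching -0.87 and 0.71. Interaction estimates ran from -0.46 to 0.54, and their intervals from -1.10 to 1.28. In stimulated cells the 95% interval was -0.25 to 0.52 for Nfkb1, -0.57 to 0.59 for Nfkbia and -0.66 to 0.51 for Bcl3, so with 2 libraries a group this count does not show that the genotypes were alike. Nor did edgeR's test call Akr1a1 itself. Its difference in Akr1a1 KO was -1.10 (SE 0.77, adjusted p = 0.643) in stimulated and -2.01 (SE 0.80, adjusted p = 0.560) in unstimulated cells. Of the 3 pathway lists, 0 genes were called between stimulated genotypes by edgeR, and 1 between unstimulated ones, the survival gene Bcl2l1, higher in Akr1a1 KO by 1.18 (SE 0.13, adjusted p = 0.0092). On stimulation, beside the shares of all genes given above, 11 of the 20 upstream genes rose and 3 fell in each genotype, 13 of the 15 other negative regulators rose in wildtype, 14 rose and 1 fell in Akr1a1 KO cells, and of the 21 target genes tested 20 rose in wildtype and all 21 in Akr1a1 KO cells.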

How the data were processed

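RNA was poly A enriched and sequenced by Novogene. The authors deposited raw gene counts, 1 table per experiment, and their processing notes name STAR and CASAVA and the mm10 build. The strand setting of the counting is not given in the sources used here. Gene positions are printed as the tables list them, with no build, since they differ from those of GRCm38 used for the promoters. The 10 genes, the 3 pathway lists and the marker lists were chosen with earlier results of these data known. Genes were kept from a sum of 10 counts over all libraries upward, scaled by TMM and fitted in R 4.3.3 with edgeR 4.0.16 (quasi-likelihood F test, 1 mean per group over all 4 groups of an experiment), and p-values were Benjamini-Hochberg adjusted over all genes tested. Calls were made at an adjusted p under 0.05. Named pathway genes were the 3 with the largest change per direction and list among called genes with a mean log2 CPM of at least 3, and others named were chosen after their values were seen. DESeq2 1.42.0 was an alternative. The scripts were tested on simulated data. Same-letter deviations between unstimulated and stimulated libraries correlated at 0.409, 0.503 and 0.116 in iNOS KO. In wildtype libraries of that experiment they correlated at -0.127, -0.266 and 0.0987. The labels state no pairing, so whether letters pair these samples is unsettled. The fit with genotype and letter as a block, added after seeing the data, changed no call of the 10 genes in the iNOS experiment. Intervals and tests cover the spread between these libraries.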

Additional observations from a re-analysis of the deposited data

Results flagged for a closer look

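For 6 of the 10 genes the response to stimulation differed between iNOS KO and wildtype cells by edgeR's interaction test, with 35.4% of all genes passing the same test. The response was larger in iNOS KO for Bcl3 by 1.13 (SE 0.13, adjusted p = 2.26e-06) on the log2 scale, for Nfkb1 by 0.52 (SE 0.088, adjusted p = 0.000161) and for Nfkbiz by 0.38 (SE 0.14, adjusted p = 0.047). It was smaller for Nfkbia, at -0.67 (SE 0.097, adjusted p = 3.47e-05), for Nfkbie, at -0.53 (SE 0.13, adjusted p = 0.00331), and for Tnfaip3, at -0.42 (SE 0.092, adjusted p = 0.00159). Bcl3 rose in iNOS KO cells and was not called in wildtype cells. The larger response of Nfkbiz goes with lower levels in iNOS KO cells in both states, since its unstimulated difference (-0.64) was wider than its stimulated one (-0.26).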

How the results depend on the processing

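Of 1390 log2 values of the 10 genes under other settings, 1285 kept their direction and their side of the threshold, 18 lost and 16 gained a call, and 71 turned sign, each of these in a comparison where the gene was not called. Of 149 counts of called genes, 145 stayed within 1.5 times. With a 2-fold limit added to the threshold, the stimulated iNOS comparison kept 0 (19.6% of all genes), the unstimulated one 0 (1.66%) and the interaction 1, Bcl3 (15% of all genes). Fits on the compared groups alone called 4 in unstimulated cells, adding Rela and Nfkbia, with 16.7% of all genes called in place of 5.98%. Without stimulated iNOS KO replicate B, 8 genes were called between stimulated genotypes, adding Rela and Rel, and 7 for the interaction, adding Rel. Without a filter on low counts Rel was called as well (0.34, adjusted p = 0.000154 from edgeR). The call of Nfkbiz was lost in 5 of 13 other settings between stimulated genotypes and in 10 of 19 for the interaction. With library totals in place of TMM, the wildtype response lost the call of Relb, and Bcl3 was called lower (-0.53, adjusted p = 6.47e-05 from edgeR). The stimulated genotypes lost the call of Nfkbiz and gained that of Rel (0.43, adjusted p = 0.0343 from edgeR). That scaling moved the median of all genes to -0.39 in the wildtype and -0.41 in the iNOS KO response, and to -0.26 and -0.12 in RAW264.7 cells.

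Deviations of the same letter correlated at 0.466, 0.397 and -0.153 between stimulated genotypes of the iNOS experiment. Between states in RAW264.7 cells they correlated at 0.411 in wildtype and 0.146 in Akr1a1 KO cells, where 2 letters give only 1 independent value, so whether letters pair these samples is unsettled. The fit with a replicate block changed no call of the 10 genes in either experiment. A replicate block of genotype and letter, chosen for the iNOS experiment after seeing the data, changed no call there in either response or the interaction. In RAW264.7 cells it added the call of Relb in the wildtype response. The cause of these changes was not tested.

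The values that turned sign follow, none of them called in the reported fit, all as log2 differences. With library totals in place of TMM the sign turned for stimulated iNOS KO against wildtype in Relb (0.089), and for unstimulated iNOS KO against wildtype in Rel (0.040), and for the iNOS interaction in Nfkb2 (0.033). With the stricter filterByExpr filter the sign turned for stimulated iNOS KO against wildtype in Nfkb2 (-0.012), and for unstimulated iNOS KO against wildtype in Rel (0.0048). In fits on the compared groups alone the sign turned for stimulated iNOS KO against wildtype in Relb (0.062), and for unstimulated iNOS KO against wildtype in Rel (0.012), and for stimulated Akr1a1 KO against wildtype in Rel (-0.0044) and Nfkbia (-0.0036), and for unstimulated Akr1a1 KO against wildtype in Rel (0.013). With DESeq2 the sign turned for stimulated Akr1a1 KO against wildtype in Rel (-0.00017), and for unstimulated Akr1a1 KO against wildtype in Rel (0.0086), and for the Akr1a1 interaction in Rel (-0.0088). With DESeq2's size factors in edgeR the sign turned for stimulated Akr1a1 KO against wildtype in Rel (-8.5e-05), and for unstimulated Akr1a1 KO against wildtype in Rel (0.0088), and for the Akr1a1 interaction in Rel (-0.0088). Without both unstimulated RAW264.7 libraries whose title and treatment field disagree the sign turned for unstimulated Akr1a1 KO against wildtype in Nfkb1 (0.0085), Nfkb2 (0.16), Rela (0.078), Relb (0.16), Rel (0.081) and Nfkbie (0.035), and for the Akr1a1 interaction in Rela (-0.050), Relb (-0.12), Rel (-0.075) and Tnfaip3 (-0.18). For unstimulated iNOS KO against wildtype the values without 1 library ran from -0.0028 to 0.074 for Nfkb1, from -0.026 to 0.082 for Nfkb2, from -0.092 to 0.073 for Rel and from -0.061 to 0.076 for Nfkbie. For the wildtype response the values without 1 library ran from -0.15 to 0.016 for Bcl3. For the iNOS interaction the values without 1 library ran from -0.065 to 0.044 for Nfkb2, from -0.0088 to 0.15 for Rela and from -0.0083 to 0.11 for Relb. For stimulated iNOS KO against wildtype the values without 1 library ran from -0.028 to 0.074 for Nfkb2 and from -0.082 to 0.026 for Relb. For unstimulated Akr1a1 KO against wildtype the values without 1 library ran from -0.58 to 0.0023 for Relb, from -0.083 to 0.059 for Rel, from -0.58 to 0.10 for Nfkbia, from -0.50 to 0.0021 for Nfkbie and from -0.13 to 0.38 for Nfkbiz. For the Akr1a1 interaction the values without 1 library ran from -0.033 to 0.28 for Rela, from -0.26 to 0.24 for Rel, from -0.095 to 0.58 for Nfkbia, from -0.56 to 0.27 for Bcl3 and from -0.034 to 0.30 for Tnfaip3. For stimulated Akr1a1 KO against wildtype the values without 1 library ran from -0.100 to 0.36 for Nfkb1, from -0.062 to 0.42 for Nfkb2, from -0.14 to 0.17 for Rela, from -0.098 to 0.15 for Relb, from -0.24 to 0.26 for Rel, from -0.29 to 0.32 for Nfkbia and from -0.46 to 0.38 for Bcl3.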
